A study of Mus musculus with 6 samples.

Results

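The interferon-inducible GTPases described here are 8 genes, chosen by name from the 23284 gene symbols of the count table: 4 immunity-related GTPases (Irgm1, Irgm2, Igtp and Iigp1, the IRG family) and 4 guanylate-binding proteins (Gbp2, Gbp3, Gbp7 and Gbp9). All 8 had reads in each library and passed the filter on low counts. The choice was made with earlier results of these data known. Neither their detection nor the lack of reads for the interferon-gamma gene Ifng, given below, is therefore a separate finding. Wild-type C57BL/6 mice, an inbred strain, aged 8 to 10 weeks, lived for 6 days either alone (single-housed, 3 libraries) or with other mice (group-housed, 3 libraries), and RNA of their prefrontal cortex was sequenced. No mouse carried a transgene or received an agent by the labels. The labelled contrast is housing, in a series whose title names interferon-gamma and social behaviour. Whether each library stands for a separate mouse is not stated, so p-values measure only the spread between these samples, and that spread may be technical.

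Both families are part of the defence that a cell mounts against microbes living inside it. Interferon-gamma binds its receptor, the receptor-bound kinases Jak1 and Jak2 pass the signal on, and the transcription factor Irf1 takes part in switching on the GTPase genes. Iigp1 and the guanylate-binding proteins assemble on the membrane of the vacuole that encloses a parasite or bacterium, while Irgm1, Irgm2 and Igtp act as regulators that keep the effector GTPases off the cell's own membranes. In the uninfected brain these genes are mainly known as readouts of interferon exposure.

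Total counts ranged from 25858355 to 33428512 per library, and the 8 genes together held 800 to 1130 counts per library, or 0.00308% to 0.00341% of the total. Markers of the striatum, a region beneath the frontal cortex, differed between libraries of both groups. Their mean was 6.40, 5.46 and 3.72 log2 CPM in the single-housed and 5.35, 3.71 and 4.03 log2 CPM in the group-housed libraries. CPM is the count scaled to a common library size, and values of libraries are given here and below in the order of replicates 1, 2 and 3. Neuron markers such as Snap25 and Slc17a7 had counts in each library, with a list mean of 9.62 to 9.75 log2 CPM.

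The promoters of these genes are shown because interferon-responsive genes are recognised through short elements near the start of transcription. 2 motifs were searched on both strands of 300 bases of RefSeq promoter (250 before and 50 after the start, build GRCm38.p6). They were the interferon-stimulated response element (ISRE, letters GAAANNGAAA) and the gamma-activated site (GAS, letters TTCNNNGAA). Of the 8 genes, 6 (all but Iigp1 and Gbp9) were matched in the promoter table. The stretches below hold the matches nearest the start with 15 bases on either side (fewer where the start is reached). Capitals mark the motif letters and the text runs 5′ to 3′ on the gene's strand.
Irgm1: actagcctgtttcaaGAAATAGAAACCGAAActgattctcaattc
Irgm2: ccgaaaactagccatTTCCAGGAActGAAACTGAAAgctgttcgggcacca
Igtp: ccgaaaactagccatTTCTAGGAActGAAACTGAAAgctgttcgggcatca
Gbp2: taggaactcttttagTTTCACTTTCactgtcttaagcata
Gbp3: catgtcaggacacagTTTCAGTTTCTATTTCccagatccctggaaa
Gbp7: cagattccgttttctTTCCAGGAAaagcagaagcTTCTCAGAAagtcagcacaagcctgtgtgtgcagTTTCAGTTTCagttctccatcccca
These stretches lie at chr11:48871421-48871465 (minus strand) for Irgm1, chr11:58214887-58214937 for Irgm2, chr11:58199496-58199546 for Igtp, chr3:142620589-142620628 for Gbp2, chr3:142559984-142560029 for Gbp3 and chr3:142530215-142530307 for Gbp7, the last 5 on the plus strand.

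ISRE letters were present in all 6 matched genes, whereas 3.44% of the 32851 promoter windows in the table held them. The matches of Irgm1, Irgm2 and Igtp read in the direction of the gene, and those of Gbp2, Gbp3 and Gbp7 read on the opposite strand. Irgm1 and Gbp3 each held 2 overlapping ISRE matches. GAS letters were present in 3 of the 6, Irgm2, Igtp and Gbp7, against 8.3% of all windows, and both motifs together were in 0.454% of windows. Gbp7 held 2 GAS matches. Gbp3 has 2 start sites in the table, and the matches belong to the first. A match describes letters only and does not show that a factor binds there.

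**Figure D1:**
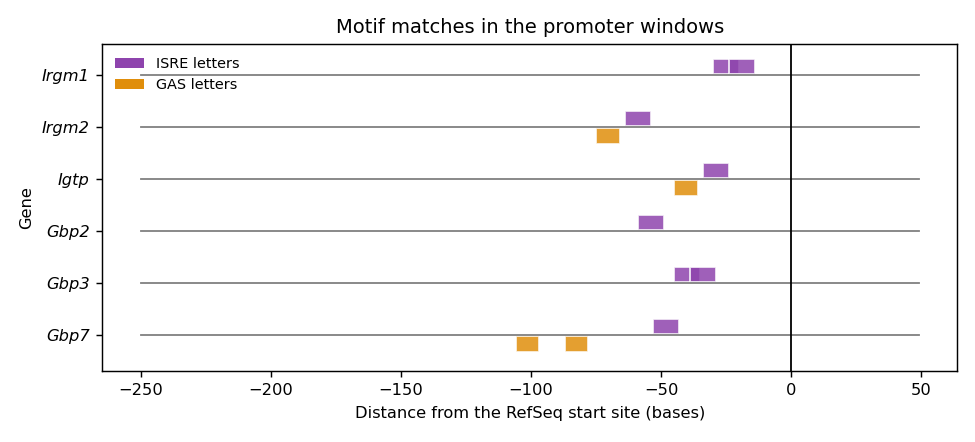
Positions of ISRE letters (purple, above each line) and GAS letters (orange, below) in bases from the RefSeq start site of the 6 genes with a promoter entry; each grey line is the window searched. All ISRE matches lie within 64 bases before the start, and the GAS matches of Irgm2, Igtp and Gbp7 lie farther upstream than the ISRE match of the same gene.

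Irgm2 and Igtp have the most alike promoters of the group. Their windows aligned over 270 bases at 90.4% identity with a longest shared run of 61 bases, and the 51-base stretches printed above were the same at 49 positions. By comparison, the windows of Irgm1 and Irgm2 aligned over 90 bases at 67.8% identity. In the deposited table Igtp (chromosome 11, 58013058 to 58021094, mm9, 3 exon intervals) and Irgm2 (chromosome 11, 58028479 to 58036285, 2 exon intervals) are neighbours on the plus strand, 7384 bases apart. Igtp was at the higher level in each library, by 2.20 to 3.08 times per length (RPKM, the CPM per kilobase of exon). This ratio depends on the deposited lengths, 2023 bases for Igtp and 3514 for Irgm2. The reason for the difference in level was not tested.

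Levels per length ranged over 14.2-fold among the 8 genes. Irgm1 had the highest mean, 4.45 RPKM, and 38.7% of the 15258 genes tested, or 51.0% of all genes with a count, had a lower one. Iigp1 had the lowest, 0.312 RPKM, with 6.34% of tested genes and 24.1% of genes with a count below it. Irgm1 alone made up 32.8% to 38.1% of the summed RPKM of the 8 genes in each library.

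The order of the mean levels was Irgm1, Igtp, Gbp3, Gbp2, Irgm2, Gbp7, Gbp9 and Iigp1. Irgm1 exceeded Igtp in 6 of 6 libraries, and the ranges of the pair did not overlap. The same held for Igtp over Gbp3 and for Gbp9 over Iigp1. The ranges of the other neighbours overlapped: Gbp3 exceeded Gbp2 in 5 of 6 libraries, Gbp2 exceeded Irgm2 in 4, Irgm2 exceeded Gbp7 in 6 and Gbp7 exceeded Gbp9 in 5. By neighbours, the order therefore separates Irgm1, Igtp, a middle set of 5 genes and Iigp1. Genes of the middle set that were not neighbours could still lie apart. Gbp3 exceeded Gbp7 by 1.48 to 1.97 times in each library, and their ranges did not overlap.

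**Figure D2:**
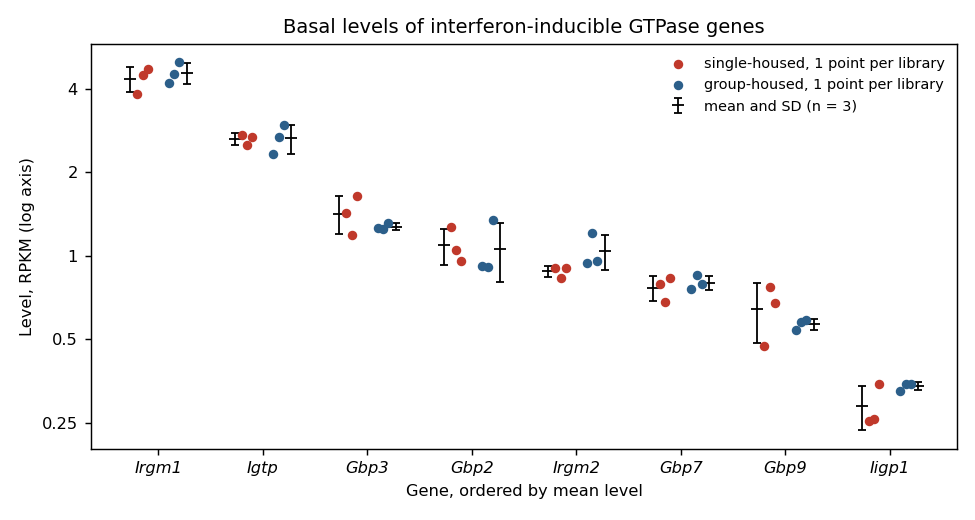
Level of each gene in RPKM on a log axis, 1 point per library, single-housed in red and group-housed in blue, with the mean and SD of each group (n = 3). Irgm1 sits near 4.45 and Iigp1 near 0.312, and the points of the housing groups overlap for each gene other than Irgm2.

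Among the regulators, Irgm1 (chromosome 11, 48678751 to 48684848, minus strand, mm9), which is also known for its role in autophagy, was at 3.83, 4.48 and 4.70 RPKM in the single-housed and at 4.19, 4.51 and 4.98 RPKM in the group-housed libraries. The groups overlapped, and the lowest value was that of single-housed replicate 1. The means were 4.34 ± 0.456 and 4.56 ± 0.397 RPKM (SD, n = 3 each), and the log2 difference, single-housed minus group-housed as throughout, was −0.07 (SE 0.118). Its sign turned without single-housed replicate 1 (0.0087).

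Irgm2 was at 0.904, 0.834 and 0.905 RPKM in the single-housed and at 0.941, 1.21 and 0.958 RPKM in the group-housed libraries. All single-housed values were below all group-housed values, and group-housed replicate 2 stood highest. The means were 0.881 ± 0.0406 and 1.04 ± 0.151 RPKM (SD, n = 3 each), a log2 difference of −0.24 (SE 0.153; edgeR's quasi-likelihood test, unadjusted p = 0.157). Without group-housed replicate 2 the difference was −0.11. Irgm2 was the 1 gene of the 8 whose groups did not overlap. Over all tested genes the groups did not overlap for 4.86%, and for 2.4% with the single-housed libraries lower.

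Igtp was at 2.73, 2.50 and 2.68 RPKM in the single-housed and at 2.32, 2.67 and 2.95 RPKM in the group-housed libraries. The group-housed values enclosed the single-housed ones. The log2 difference was −0.01 (SE 0.131), with means of 2.64 ± 0.124 and 2.65 ± 0.315 RPKM (SD, n = 3 each), and its sign turned without single-housed replicate 2 (0.04) or group-housed replicate 3 (0.08).

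Iigp1 (chromosome 18, 60535683 to 60552283, plus strand), the effector IRG, had 26, 27 and 36 counts in the single-housed and 27, 33 and 34 counts in the group-housed libraries. Per length these were 0.254, 0.258 and 0.346 RPKM and 0.325, 0.346 and 0.346 RPKM. Single-housed replicates 1 and 2 were low, and single-housed replicate 3 lay level with the group-housed libraries. The log2 difference was −0.24 (SE 0.217), or −0.40 without single-housed replicate 3, and counting error alone would give a coefficient of variation of 18.1% at this depth.

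The guanylate-binding proteins had a common direction in no more than 3 of 4 genes. Gbp2 (chromosome 3, 142283627 to 142300972, mm9) was at 1.27, 1.05 and 0.953 RPKM in the single-housed and at 0.919, 0.907 and 1.35 RPKM in the group-housed libraries. Group-housed replicate 3 and single-housed replicate 1 were the highest libraries, and the groups overlapped. The log2 difference was 0.04 (SE 0.205), and its sign turned without single-housed replicate 1 (−0.08), group-housed replicate 1 (−0.05) or group-housed replicate 2 (−0.06).

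Gbp3 (chromosome 3, 142223016 to 142236176) was at 1.42, 1.19 and 1.64 RPKM in the single-housed and at 1.25, 1.25 and 1.31 RPKM in the group-housed libraries. The single-housed libraries enclosed the group-housed ones, with coefficients of variation of 15.8% and 2.65%. The log2 difference was 0.15 (SE 0.155), and it was 0.04 without single-housed replicate 3 and 0.27 without single-housed replicate 2.

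Gbp7 (chromosome 3, 142193302 to 142213047) was the most even gene across the 6 libraries, at 0.792, 0.678 and 0.832 RPKM in the single-housed and 0.758, 0.849 and 0.789 RPKM in the group-housed libraries. The groups overlapped, and the log2 difference was −0.06 (SE 0.134), with its sign turned without single-housed replicate 2 (0.03). It lies 9968 bases from Gbp3 on the same strand, and Gbp3 lies 47450 bases from Gbp2.

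Gbp9 (chromosome 5, 105507413 to 105539311, minus strand) was at 0.471, 0.774 and 0.677 RPKM in the single-housed and at 0.538, 0.577 and 0.586 RPKM in the group-housed libraries. Single-housed replicate 1 was the lowest and single-housed replicate 2 the highest of the 6 libraries. The log2 difference was 0.18 (SE 0.206), and it was 0.02 without single-housed replicate 2 and 0.35 without single-housed replicate 1.

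None of the 8 genes passed edgeR's quasi-likelihood test for housing (adjusted p = 0.9999 for each), and 0% of the 15258 genes tested passed. At an unadjusted p under 0.05 the count was 0 of 8, against 1.56% of all genes, and DESeq2 and limma-voom also called 0 of the 8. All 4 IRG genes had a lower mean in single-housed libraries, and 3 of the 4 guanylate-binding protein genes had a higher one, where 49.3% of all tested genes were lower. These directions turned for Irgm1, Igtp, Gbp2 and Gbp7 with 1 library or another left out, and for Irgm1, Igtp and Gbp2 with the striatal covariate described further on. The median log2 difference was −0.15 over the IRG genes, 0.10 over the guanylate-binding proteins and −0.03 over all 8, beside 0.00 over all genes tested.

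The intervals give the range of differences between the groups at the spread between these libraries, which may be technical. They do not bound an effect of housing apart from striatal markers, which moved with housing in part. Each 95% interval, taken gene by gene without adjustment, lay inside a 2-fold change in either direction. The widest reached from 0.600-fold to 1.19-fold for Iigp1 and from 0.816-fold to 1.56-fold for Gbp9. The narrowest was that of Irgm1, from 0.790-fold to 1.14-fold. Values inside an interval are not excluded by these libraries. In bulk tissue fewer cells of a type and less RNA per cell cannot be told apart.

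**Figure D3:**
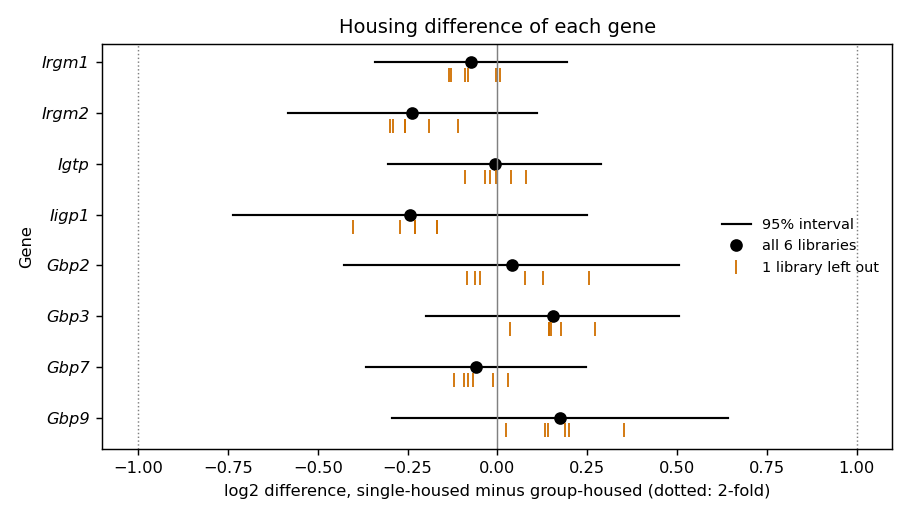
Log2 difference of each gene between single-housed and group-housed libraries, with the 95% interval (line) and the value with 1 library left out (orange ticks, 6 per gene). All intervals cross 0 and end inside the dotted lines at a 2-fold change, and the ticks of Irgm1, Igtp, Gbp2 and Gbp7 fall on both sides of 0.

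The 8 genes differed in how even they were between libraries of a group. The biological coefficient of variation, edgeR's estimate of the spread beyond counting error after moderation toward the trend over all genes, was 11.0% for Irgm1, 12.5% for Irgm2, 11.4% for Igtp and 12.7% for Iigp1. It was 16.6% for Gbp2, 12.9% for Gbp3, 11.4% for Gbp7 and 16.0% for Gbp9, beside a common value of 11.8% over all genes. Gbp2 and Gbp9 were the most uneven, with 85.1% and 83.4% of tested genes below them. The moderated values are not each gene's own remaining spread. Over the 6 libraries the observed coefficient of variation of RPKM was 14.2% for Iigp1 and 7.75% for Gbp7, below the 18.1% and 8.56% that counting error alone would give, and it was 8.10% beside 7.71% for Igtp.

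The correlations between the 8 genes over the 6 libraries were mixed in sign. For Iigp1, Gbp7 and Igtp the spread between libraries was no larger or little larger than counting error, so a low correlation there does not show that genes vary apart. The Pearson correlation of log2 CPM, given as a description over points that share libraries, depth and tissue makeup, was positive in 6 of 6 pairs of IRG genes (0.15 to 0.67). It was positive in 11 of 16 pairs of an IRG and a guanylate-binding protein gene (−0.34 to 0.69) and in 2 of 6 pairs of guanylate-binding proteins (−0.46 to 0.57). The neighbours Igtp and Irgm2, with their alike promoters, were at 0.18, and Igtp and Gbp2 at 0.69. Gbp9 had negative values against Gbp2, Gbp3 and Gbp7.

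A correlation with the mean pattern of a family is not the same measure as one between a pair of its members. The values below therefore do not show how alike the members were. The other genes with the highest correlation to each mean are named here. For the IRG mean these were Pou6f1, a POU-domain transcription factor (0.996), C2cd4b (0.981), Fzd1, a Wnt receptor (0.978), Tsnax (0.973) and Sel1l3 (0.970). For the guanylate-binding protein mean they were Mmachc, a vitamin B12 processing gene (0.987), Kctd6 (0.984), Cnn2, a calponin (0.981), Fam117b (0.975) and Il34, a ligand of the microglial receptor Csf1r (0.970). They were the highest of 13856 genes over 6 libraries, and 107 and 65 genes exceeded 0.9, so such values arise easily. The median correlation of the 24 other interferon-gamma targets with the IRG mean was −0.10, beside −0.01 over all genes tested. It was 0.20 for 27 type I interferon targets and 0.13 for 19 interferon receptor and signalling genes. With the guanylate-binding protein mean these lists were at −0.07, −0.22 and 0.04, beside 0.02 over all genes tested.

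The mean level of the 4 IRG genes ran opposite to striatal markers, though not each gene did so. The mean over the 4 IRG genes was 1.76, 1.77 and 1.84 log2 CPM in the 3 libraries with high striatal markers (single-housed replicates 1 and 2 and group-housed replicate 1). It was 1.94, 2.02 and 2.01 in single-housed replicate 3 and group-housed replicates 2 and 3, and these sets did not overlap. Irgm1 was at 8.52 to 9.99 CPM in the first set and 10.05 to 11.1 CPM in the second, and Iigp1 at 0.794 to 1.01 against 1.08 to 1.08 CPM. The Iigp1 values rest on 26 to 36 counts per library, with a spread (14.2%) below that of counting error (18.1%). Irgm2 and Igtp overlapped between the sets, as did the 4 guanylate-binding proteins. Being lower in each high-striatal library therefore applied to 2 of 8 genes, where 9.67% of all tested genes had that pattern, and the sets were formed after the data were seen.

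**Figure D4:**
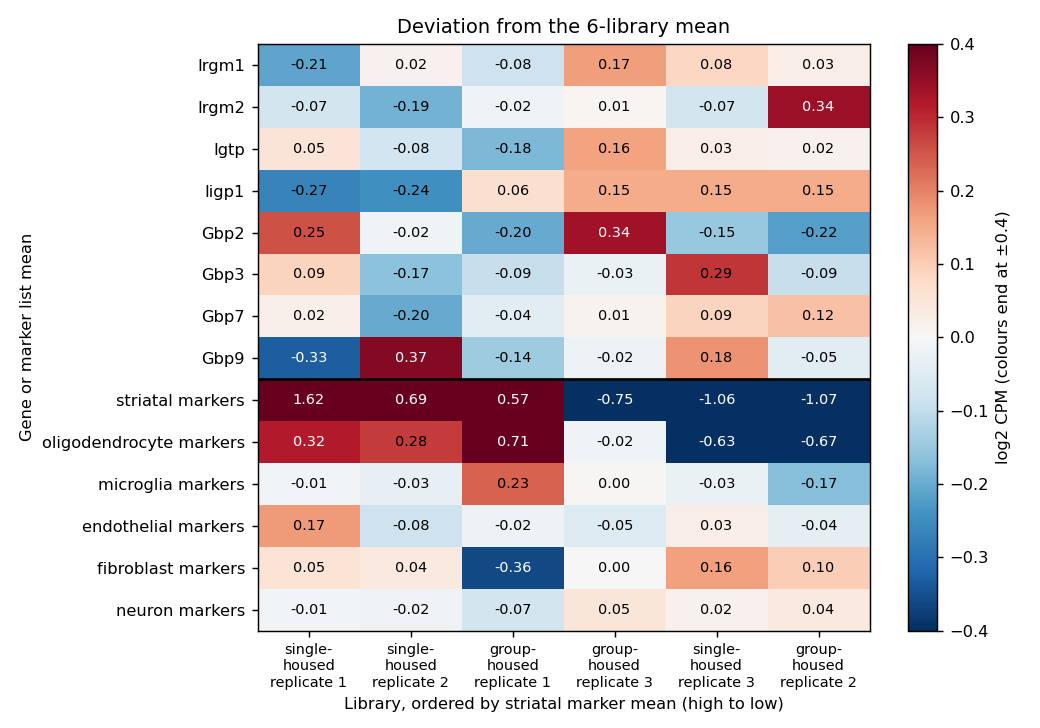
Deviation of each library from the 6-library mean in log2 CPM, for the 8 genes (above the line) and the mean of 6 marker lists (below), with libraries ordered from high to low striatal markers. Striatal markers run from 1.62 to −1.07, and Iigp1 is at −0.27 and −0.24 in single-housed replicates 1 and 2 but at 0.06 in group-housed replicate 1, the other high-striatal library.

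Of the 3 high-striatal libraries 2 were single-housed, so striatal markers moved with housing in part. With the striatal mean as a covariate the log2 differences were 0.01 for Irgm1, −0.19 for Irgm2, 0.03 for Igtp and −0.13 for Iigp1, and −0.03, 0.22, −0.01 and 0.27 for Gbp2, Gbp3, Gbp7 and Gbp9. The sign of Irgm1, Igtp and Gbp2 turned, and no gene passed the test. Oligodendrocyte markers (10 of 10 tested, with summed levels of 2115 to 4385 CPM in single-housed and 2072 to 5623 CPM in group-housed libraries) were also higher in the 3 high-striatal libraries than in the others. Their part in the IRG levels was not tested.

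No marker of microglia, endothelial cells or astrocytes passed the test between the groups, and neither did any of the 15258 genes tested. Directions were uneven, where 49.3% of all tested genes were lower with single housing. Microglia markers were lower in 14 of 18 and astrocyte markers in 8 of 12. Endothelial markers were higher in 13 of 18, mural cell markers in 8 of 10 and fibroblast markers in 9 of 10. Their part in the levels of the 8 genes was not tested. Microglia markers (18 of 18 tested, such as Cx3cr1, P2ry12 and Tmem119) summed to 746 to 761 CPM in single-housed and 700.4 to 904 CPM in group-housed libraries. Endothelial markers (18 of 18 tested, such as Cldn5) summed to 401 to 467 and 402 to 418 CPM. Astrocyte markers summed to 4846 to 5233 and 5114 to 5213 CPM. Of the lymphocyte list 13 of 14 genes had a row. The T cell receptor complex genes Cd3e, Cd3d and Cd3g had 0 to 3 counts per library, the natural killer cell genes Ncr1, Nkg7 and Klrb1c 0 to 2, and the B cell gene Ms4a1 0 to 2. Cd4 was higher, at 34 to 774 counts, and highest in the same 3 libraries as the striatal markers. Lck was also higher, at 39 to 63 counts per library, and Cd79a had 4 to 6.

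Transcripts of the interferons were at or near 0 in the libraries where the GTPases were measured. Ifng had 0 counts in all 6 libraries, where 3 counts, the limit that a count of 0 allows, would be 0.0897 to 0.116 CPM of the total (counting error only). Of 18 ligand and inducer genes, 12 had 0 counts in each library, among them Ifnb1 and the 7 Ifna genes listed. Ifnk had 1 count in 1 library, and Il12b, Il27 and Tnf had at most 4, 2 and 3 counts. Il18, which induces interferon-gamma in lymphocytes, passed the filter, with a log2 difference of −0.10 (SE 0.155). Il12a, the gene of 1 subunit of interleukin-12, also passed it, with a difference of −0.30 (SE 0.184).

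The receptor genes Ifngr1 and Ifngr2 and the kinase genes Jak1 and Jak2 had higher mean levels per length than any of the 8. Ifngr2 was at 22.9 RPKM, Ifngr1 at 7.89, Jak1 at 43.6 and Jak2 at 9.61 RPKM over the 6 libraries. Irf1 was at 2.20 RPKM, beside 2.64 for Igtp. Of 19 genes of the list, all tested, 12 were higher and 7 lower, with a median log2 difference of 0.02, and 0 passed the test. Jak1 differed by 0.02 (SE 0.0992) and Jak2 by −0.01 (SE 0.0779). Ptpn2, a phosphatase that turns off Jak1, differed by −0.12 (SE 0.105), the kinase gene Tyk2 by 0.10 (SE 0.101) and the feedback inhibitor gene Socs1 by −0.43 (SE 0.364).

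Other GTPase genes had uneven levels. The list holds further IRG and guanylate-binding protein genes, and also the antiviral dynamin-like GTPases Mx1 and Mx2 and the very large GTPase rows Gvin1 and Gm4070. Of its 21 genes with a row, 7 passed the filter, 10 had up to 18 counts in a library, and 4 were at 0 throughout. Irgq, an IRG-related gene of the quasi-GTPase type, was far above the rest at 29.6 RPKM. Some of the list stood among the 8 genes per length. Gbp5, at 0.693 RPKM, was above Gbp9 (0.604). Irgc1 at 0.504, Gbp4 at 0.418 and Mx2 at 0.352 RPKM were above Iigp1 (0.312). Gbp11 at 0.189 and Gbp6 at 0.0859 RPKM were below all of the 8. Of the 7 genes of the list that passed the filter, 3 were higher and 4 lower with single housing (median log2 difference −0.02), and 0 passed the test. The differences ran from −0.13 for Gbp11 to 0.28 for Mx2.

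The genes at 0 were Gbp1, Tgtp1, Gvin1 and Gm4070. Tgtp1 shares 2809 exon bases with the row of Tgtp2, and Gvin1 shares 18072 with that of Gm4070, so reads there fit both rows and a count of 0 does not show absence. Gbp1, 1 of the guanylate-binding proteins of chromosome 3, shares no exon bases with another row. Among the low genes, Tgtp2 had 4 to 16 counts, Mx1 4 to 12, Gm12250 2 to 12, 9930111J21Rik1 2 to 18, Gm4951 2 to 9 and Gm5431 2 to 4. Gbp8 had 0 to 5, Gbp10 0 to 2, F830016B08Rik 0 to 2 and 9930111J21Rik2 0 to 1.

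**Figure D5:**
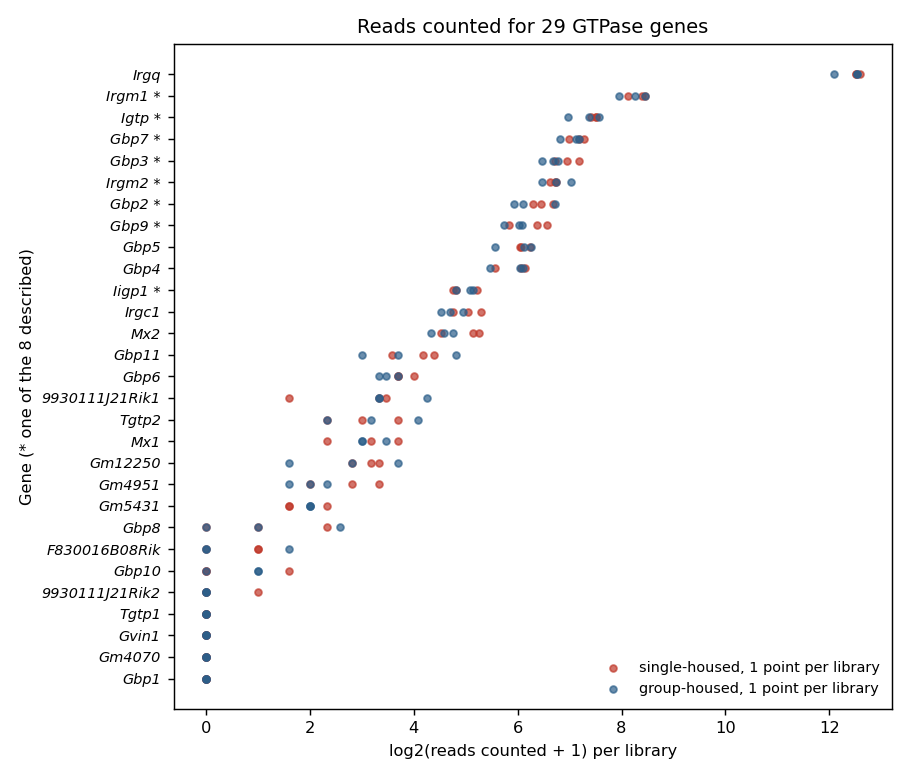
Reads counted per library for 29 GTPase rows (the 8 genes and the list of 21, with the Mx and very large GTPase rows), as log2(count + 1), 1 point per library, single-housed in red and group-housed in blue; asterisks mark the 8 genes described. By reads counted, which are not scaled by length, Irgq lies far above the others and 7 of the 8 genes hold the ranks just below it. Per length, Gbp5 was above Gbp9, and Irgc1, Gbp4 and Mx2 were above Iigp1. In each library 4 rows are at 0.

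Shared sequence limits how exactly some of these counts belong to their gene. No exon of the 8 overlapped another row of the table. In the GENCODE M21 transcripts, 11.8% of the 50-base stretches of Igtp also occurred in another gene, all of them in Irgm2, and 7.83% of those of Irgm2 were shared. The shares were 12.7% for Gbp7, mostly with the gene model Gm43802, 9.56% for Gbp9, with Gbp8 first, 3.83% for Gbp3, 3.20% for Iigp1, 2.07% for Gbp2 and 0.956% for Irgm1. Reads from such stretches may be dropped or split, depending on counting settings that no label gives. Gbp6 and Gbp10 shared 90.2% and 82.5%, and their counts are uncertain. The same limit holds for 9930111J21Rik1 (83.2% shared), 9930111J21Rik2 (59.8%), Gm5431 (37.3%) and Gbp11 (34.5%).

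No other interferon target on the fixed lists passed the test either. Of 24 further interferon-gamma targets tested, 15 were lower and 9 higher (median log2 difference −0.06), with H2-Eb1 (−0.38, SE 0.195), B2m (−0.17, SE 0.0858) and the immunoproteasome subunit gene Psmb8 (−0.25, SE 0.216) at the smallest p. Of 27 type I interferon targets, 17 were lower and 10 higher (median −0.03), with Irf7 (−0.51, SE 0.202), Oasl2 (0.43, SE 0.191) and Eif2ak2 (0.23, SE 0.124) at the smallest p. The autophagy conjugation system directs effector IRG proteins and guanylate-binding proteins to vacuoles. Of 18 genes on its list, 13 had a lower mean with single housing (median log2 difference −0.03), and 0 passed. Among the 13 were Map1lc3b (−0.11, SE 0.0739), Map1lc3a (−0.12, SE 0.0873) and Atg16l1 (−0.08, SE 0.0631).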

How the data were processed

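The deposited table gives raw read counts for each gene and library with no scaling, and the exon length of each gene, per the file headers. FastQC, STAR and featureCounts with mouse build mm9 are named in the submitters' processing notes. Versions, annotation and strand setting: not given in the sources used here. A stranded polyA kit was used on column-purified RNA, per the labels' protocols.

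Groups and replicate numbers came from the sample titles. Housing was tested with edgeR (version 4.0.16, R 4.3.3; quasi-likelihood F-test) after TMM scaling and filterByExpr (minimum count 10, minimum total 15; 15258 of 23284 genes kept), with Benjamini-Hochberg adjustment over all genes at 0.05. SEs and 95% intervals came from the F statistic. The script was tested on simulated data. Log2 CPM used a prior count of 2. RPKM divided TMM-scaled CPM by the deposited length. Named genes followed a rule: the 8 genes, 7 pathway genes, the further GTPase genes, the 3 of smallest p per list and the 5 highest correlations per family. Alternatives were DESeq2 size factors, DESeq2 (1.42.0), limma-voom (limma 3.58.1), a robust fit, no filter or a mean CPM above 1, each library left out, a replicate block and a striatal covariate. Protein features were planned but not analysed here. Of the genes that the rule names, some are not reported here. Members, lists and alternatives were chosen with earlier results of these data known. Of 282 list entries 4 had no row. Promoters are RefSeq's, matched by symbol, and were aligned with Biopython 1.88. Any pair of libraries differed by more than sampling noise (chi-square per degree of freedom of 8.21 to 38.7).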

Additional observations from a re-analysis of the deposited data

How the results depend on the processing

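No setting called any of the 8 genes; over 15 alternatives the smallest adjusted p was 0.909. Of 119 values, 106 kept their direction and 13 turned. With 1 library left out, the log2 differences ranged from −0.13 to 0.0087 (Irgm1), −0.30 to −0.11 (Irgm2), −0.090 to 0.078 (Igtp), −0.40 to −0.17 (Iigp1), −0.084 to 0.26 (Gbp2), 0.037 to 0.27 (Gbp3), −0.12 to 0.030 (Gbp7) and 0.025 to 0.35 (Gbp9). The median over the 8 ranged from −0.092 to 0.037. With the striatal mean as a covariate the differences of Gbp2, Igtp and Irgm1 turned (−0.032, 0.029 and 0.0094). An alternative added after the data were seen left out the 3 high-striatal libraries, which leaves 1 library against 2; there Gbp2, Gbp7 and Iigp1 turned (−0.24, 0.023 and 4.39e-04). The cause was not tested. Genes called over the whole table numbered 0, but 8 with DESeq2, 4 without the high-striatal libraries and 0 to 1 with 1 library left out (1 without group-housed replicate 1 and 1 without group-housed replicate 2). Iigp1 did not pass a filter at a mean CPM above 1. Same-numbered libraries correlated at 0.27, −0.32 and 0.17 in their deviations, beside −0.43 to 0.35 for the other pairs. These few values cannot show whether the numbers mark a pairing. With the replicate block 0 genes were called and the median over the 8 was −0.032. Low counts limit Iigp1, Gbp2 and Gbp9 most.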
